A study of Homo sapiens with 4 samples.

Results

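The 10 genes of retinoic acid handling were followed across 4 arrays: the synthesis enzymes ALDH1A1 and ALDH1A2, the retinal reductase DHRS3, the breakdown enzymes CYP26A1 and CYP26B1, the binding proteins CRABP1 and CRABP2, and the receptors RARA, RARB and RARG. They were taken by name, as genes of one pathway. The members and the gene lists below were chosen with earlier results of these data known. Their counts beside the shares of all genes are therefore descriptions. All 10 members were found, out of 18640 genes named on the array, and they carried 115 of the 247035 probesets used. A probeset here is a handful of probes that read part of an exon, and each member had between 7 and 16 of them. The probesets of a gene read the same RNA, so they are not replicates.

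RNA came from embryoid bodies, floating aggregates in which human embryonic stem cells start to differentiate. The TBBD group received TBBD at 10 µM for 48 h within days 2 to 4 after the aggregates were set up, as a general schedule, and the DMSO group received the vehicle. Each group held 2 arrays, and the labels number them replicate 1 and replicate 2. The series title describes TBBD as an inhibitor of methylation of arginine 17 on histone H3. The compound is also known as ellagic acid, and the methyltransferase that places this mark is CARM1. All samples derive from 1 line of embryonic stem cells, BG01V, whose karyotype is not normal, and all embryoid bodies were moved from conditioned medium to a medium that contains serum. The labels name no added retinoid. They do not say whether a replicate number stands for a culture, a day or a labelling round, so a p-value here reflects the spread among 4 arrays, and that spread may be technical.

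Retinoic acid is made from vitamin A in steps: dehydrogenases oxidise retinol to retinal, and the ALDH1A enzymes oxidise retinal to retinoic acid. The acid binds RAR receptors, which sit with RXR partners on response elements in DNA and recruit coactivators, CARM1 among them. CYP26 enzymes degrade the acid, and DHRS3 turns retinal back into retinol. In the embryo this pathway sets anterior and posterior identity, and CYP26A1, DHRS3 and RARB are textbook genes induced by retinoic acid.

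The response element is shown first, because it links receptors to targets within this gene set. The promoter windows in the RefSeq table (GRCh38.p14) run from 250 bases before to 50 bases after a start site, and the 10 members had 19 of them. The half-site AGGTCA and its variants, spelled AGTTCA or spelled GGGTCA or spelled GGTTCA, were searched on both strands as direct repeats with 1, 2 or 5 bases between them. A match was found in 2 member windows, 1 of CYP26A1 and 1 of RARB, both with the spacing of 5. Over all 35116 windows, 0.0883% held a match with the spacing of 5 and 0.259% held one with any of the spacings. The CYP26A1 window is chr10:93073643-93073942 on the plus strand, with the match on the minus strand beginning at position -90 from the start site. The RARB window is chr3:25428013-25428312 on the plus strand, with the match on the plus strand beginning at position -53. Capitals mark the match, and neither match overlaps another. A match is a description of these letters, and the lack of one in another window tells nothing about receptor binding there.
CYP26A1: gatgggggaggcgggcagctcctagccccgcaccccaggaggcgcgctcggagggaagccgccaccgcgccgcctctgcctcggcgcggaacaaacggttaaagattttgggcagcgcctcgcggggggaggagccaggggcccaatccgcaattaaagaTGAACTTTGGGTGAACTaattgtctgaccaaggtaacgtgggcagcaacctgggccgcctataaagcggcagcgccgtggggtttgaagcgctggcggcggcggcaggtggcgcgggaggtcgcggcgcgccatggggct
RARB: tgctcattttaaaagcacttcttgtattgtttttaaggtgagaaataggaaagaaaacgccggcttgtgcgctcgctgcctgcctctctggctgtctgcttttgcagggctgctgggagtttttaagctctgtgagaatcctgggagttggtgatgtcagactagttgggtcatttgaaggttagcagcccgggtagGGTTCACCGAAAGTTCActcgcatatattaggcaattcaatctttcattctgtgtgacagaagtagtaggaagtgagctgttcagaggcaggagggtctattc

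Values are log2 signals as deposited, averaged over the probesets of a gene, so a difference of 1 is a change of 1 doubling. Array medians lay between 6.39 and 6.42. LIN28A, a marker of pluripotent cells, read 9.08 to 10.00, and COL1A1, a collagen gene of mesenchyme, read 8.90 to 10.79. LIN28A was the brightest of the 11 measured pluripotency markers, whose mean lay between 7.11 and 7.68 on the arrays. NANOG read 6.49 to 6.79 and GDF3 5.70 to 6.33. The mean of the 12 mesenchyme markers lay between 8.01 and 9.53. Markers of undifferentiated and of differentiating cells were thus read on every array, some pluripotency markers only dimly. In such mixed samples fewer cells of a type and less RNA per cell cannot be told apart. As a rough guide to dim signal, 348 olfactory receptor genes had a median of 5.40 and a 95th percentile of 5.66. Probes differ in affinity, so this guide does not set a detection limit. CYP26B1, at a mean of 5.29 over the 4 arrays, lay under that percentile, and ALDH1A1, at 5.71, lay close to it.

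**Figure D1:**
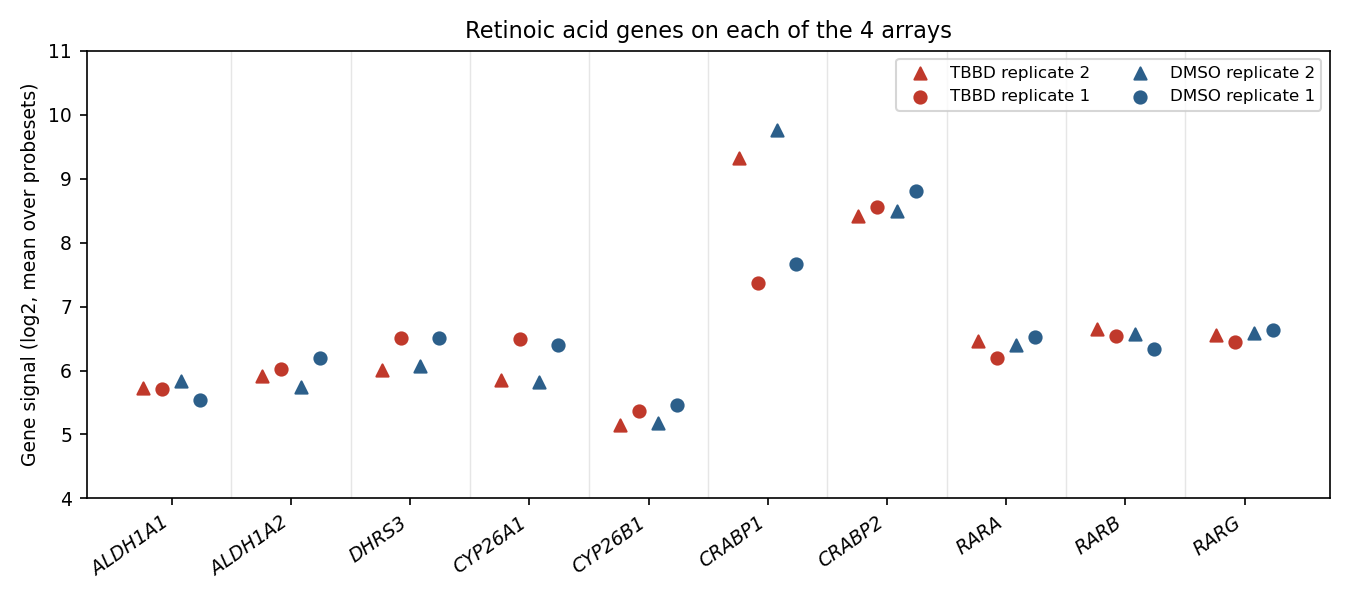
Log2 signal of the 10 retinoic acid genes (vertical axis, mean over probesets) on each array, with TBBD in red, DMSO in blue, triangles for replicate 2 and circles for replicate 1. CRABP1 spans 7.37 to 9.76 and splits by replicate number, and the other genes span at most 0.68.

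TBBD and DMSO embryoid bodies did not differ detectably in any of the 10 genes after adjustment over all genes. The differences, TBBD minus DMSO, ran from -0.36 for CRABP1 to 0.14 for RARB, with 3 genes higher, 7 lower and a median of -0.05, against a median of -0.0035 over all genes. In limma with Benjamini-Hochberg adjustment over all genes, 0 of the 10 passed the threshold of 0.05, as did 0% of all 18640 genes. At an unadjusted p under 0.05 in this fit, by treatment alone, there were 0 of the 10 and 0.746% of all genes. The fit by treatment alone counts the gap between the replicate numbers as spread. With the replicate number as a second term, the SE of CRABP1 fell from 0.91 to 0.12, at the same difference of -0.36. The SE of CYP26A1 fell from 0.29 to 0.11, while that of RARG stayed at 0.12. In that fit too 0 of the 10 passed the adjusted threshold. The TBBD and DMSO arrays did not overlap for 1 member, RARG, against 20.9% of all genes. The median 95% confidence interval in the fit by treatment alone reached 0.36 to either side, for single genes and without adjustment. Smaller effects were not detectable for a typical gene, and larger ones could also miss the adjusted threshold.

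The replicate numbers separated 3 of the 10 genes. CRABP1 was 4.08-fold higher on the replicate 2 arrays than on the replicate 1 arrays, whereas CYP26A1 was 1.53-fold lower and DHRS3 1.37-fold lower. All 3 passed limma's adjusted threshold for replicate 2 minus replicate 1, as did 5.37% of all genes (3.35% higher and 2.02% lower). Each number held 1 TBBD and 1 DMSO array, so the spread in this fit is that between the treatments. Its p-values and SEs do not measure how far repeated runs of a number would differ. At an unadjusted p under 0.05 there were 5 of the 10, CYP26B1 and ALDH1A2 being the others, and 21% of all genes. The arrays of the numbers did not overlap for 8 members, against 51% of all genes. No such share was computed over single probesets, so the counts of non-overlapping probesets below have no background.

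**Figure D2:**
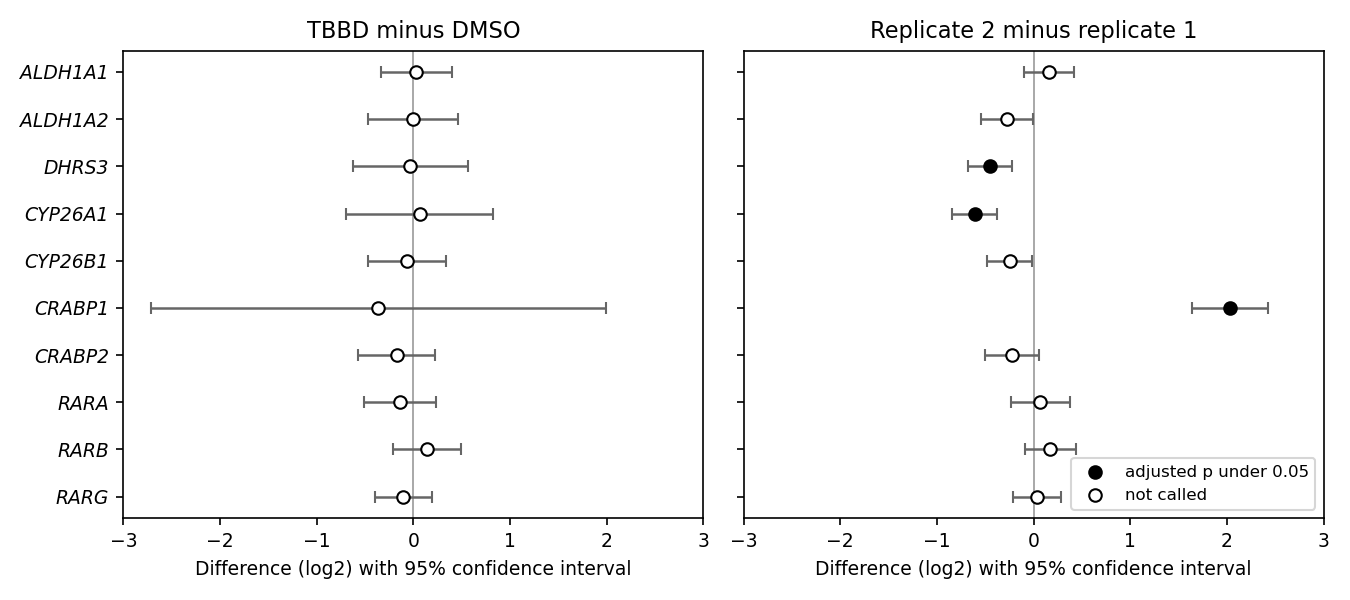
Differences of the 10 genes on the log2 scale with limma's 95% confidence intervals, TBBD minus DMSO on the left and replicate 2 minus replicate 1 on the right. Filled points have an adjusted p under 0.05. No gene is filled on the left, and CRABP1 at 2.03, CYP26A1 at -0.61 and DHRS3 at -0.46 are filled on the right.

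ALDH1A2, the main retinoic acid synthesis enzyme of early mouse mesoderm, had log2 signals of 6.02 and 5.92 in TBBD replicates 1 and 2, against 6.20 and 5.75 in DMSO replicates 1 and 2. The DMSO arrays enclosed the TBBD arrays, and the difference was -0.0059 ± 0.18 (SE, 2 arrays a group). Within a replicate number TBBD minus DMSO was 0.17 in replicate 2 and -0.18 in replicate 1, so the sign turned. Both replicate 2 arrays lay below both replicate 1 arrays, at a difference of -0.27, and 14 of the 16 probesets were lower there, but the difference did not pass (limma adjusted p = 0.234).

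ALDH1A1, a second enzyme of this family, had log2 signals of 5.71 and 5.73 in TBBD replicates 1 and 2, against 5.55 and 5.84 in DMSO replicates 1 and 2. Here too the DMSO arrays enclosed the TBBD arrays, with a difference of 0.03 ± 0.14 (SE). TBBD minus DMSO was -0.11 in replicate 2 and 0.17 in replicate 1. Its 16 probesets scattered widely: 9 changed sign between the numbers, and 1 of them stood at -2.21 in replicate 2 and 1.00 in replicate 1. Replicate 2 minus replicate 1 was 0.16 ± 0.11 (SE), which did not pass (limma adjusted p = 0.482).

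DHRS3, the reductase that holds retinal back from oxidation, had log2 signals of 6.50 and 6.02 in TBBD replicates 1 and 2, against 6.50 and 6.08 in DMSO replicates 1 and 2. The treatments were almost level, with a difference of -0.03 ± 0.23 (SE) and within-number differences of -0.06 in replicate 2 and 0.0023 in replicate 1. Both replicate 2 arrays lay below both replicate 1 arrays, at -0.46 ± 0.10 (SE), and the difference passed limma's test (adjusted p = 0.0428). All 9 probesets were lower in replicate 2, with differences from -1.05 to -0.090, and 5 of them had no overlap between the numbers. The call lay close to the threshold. It ended without any 1 of the 4 arrays (limma adjusted p between 0.106 and 0.224, TBBD replicates 1 and 2 and DMSO replicates 1 and 2 each left out in turn), and with the treatment as a second term (limma adjusted p = 0.0903). Taking the probeset median in place of the mean gave -0.27 and also ended it.

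CYP26A1, the inducible hydroxylase that clears retinoic acid, had log2 signals of 6.49 and 5.85 in TBBD replicates 1 and 2, against 6.40 and 5.81 in DMSO replicates 1 and 2. As a mean over probesets, TBBD sat slightly above DMSO in each number, by 0.04 in replicate 2 and 0.09 in replicate 1. The difference of 0.06 ± 0.29 (SE) did not pass. Of its 9 probesets 6 were lower with TBBD and 3 higher, with a median difference of -0.08. The replicate 2 arrays, at 5.85 with TBBD and 5.81 with DMSO, lay below the replicate 1 arrays, at 6.49 with TBBD and 6.40 with DMSO. The difference of -0.61 ± 0.10 (SE) passed limma's test (adjusted p = 0.0184). All 9 probesets were lower in replicate 2 and 8 of them did not overlap, with differences from -1.11 to -0.21. The brightest, at 7.98 to 8.31 on the arrays, stood at -0.25. The largest, -1.11 and -1.09, came from dimmer probesets that read 5.24 to 6.67. Leaving out any 1 array kept the difference between -0.66 and -0.56 but ended the call: limma adjusted p was 0.0673 without TBBD replicate 1, 0.0759 without TBBD replicate 2, 0.0509 without DMSO replicate 1 and 0.0655 without DMSO replicate 2.

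CYP26B1, a related hydroxylase, had log2 signals of 5.36 and 5.15 in TBBD replicates 1 and 2, against 5.47 and 5.18 in DMSO replicates 1 and 2. TBBD minus DMSO was -0.06 ± 0.16 (SE), and -0.02 in replicate 2 and -0.11 in replicate 1. Replicate 2 minus replicate 1 was -0.25 and the numbers did not overlap, but the difference did not pass (limma adjusted p = 0.212). Since its signal lay among those of the olfactory receptor genes, whether CYP26B1 was expressed is uncertain.

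**Figure D3:**
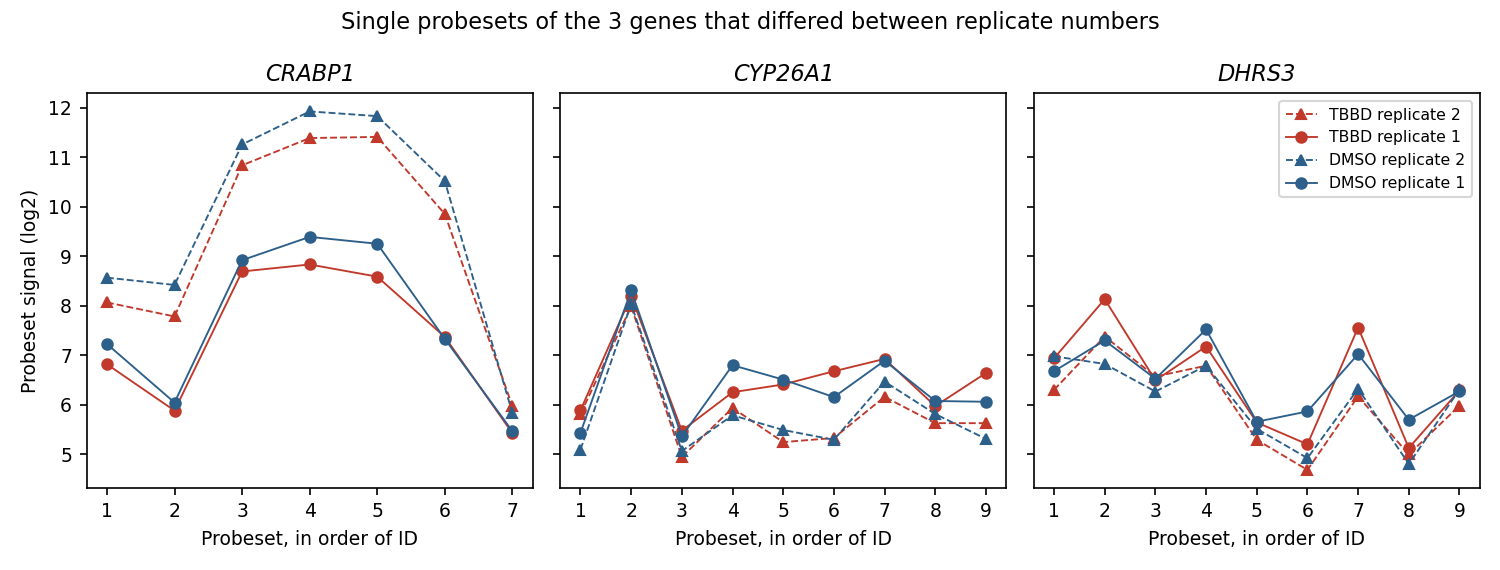
Log2 signal of each probeset of CRABP1, CYP26A1 and DHRS3, in order of probeset ID, with 1 line per array (TBBD red, DMSO blue, replicate 2 dashed with triangles, replicate 1 solid with circles). The dashed lines lie above the solid ones over the first 6 CRABP1 probesets, by 1.29 to 2.84 on average, and mostly below them for CYP26A1 and DHRS3.

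CRABP1, a cytosolic protein that binds retinoic acid, had the widest range of the 10 genes. Its log2 signals were 7.37 and 9.33 in TBBD replicates 1 and 2, against 7.66 and 9.76 in DMSO replicates 1 and 2. The replicate number thus divided the arrays and the treatments overlapped. Replicate 2 minus replicate 1 was 2.03 ± 0.17 (SE), with 1.96 between the TBBD arrays and 2.10 between the DMSO arrays, and it passed limma's test (adjusted p = 0.00148). The call held with any 1 array left out, with differences between 1.81 and 2.25 and a highest limma adjusted p of 0.0113.

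All 7 CRABP1 probesets were higher in replicate 2 with no overlap. The 6 with consecutive IDs differed by 1.29 to 2.84. The remaining one has an ID far from that run and differed by 0.45 at signals of 5.42 to 5.97. Without it, an alternative chosen after seeing the data, the gene's difference was 2.29 ± 0.19 (SE).

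For CRABP1, TBBD minus DMSO came to -0.43 in replicate 2 and to -0.29 in replicate 1, and 5 of the 7 probesets were lower with TBBD in both numbers. The difference did not pass limma's test. Both numbers together gave -0.36, with a 95% confidence interval of -2.71 to 1.99. The fit by treatment alone counts the gap between the numbers as spread. With the replicate number as a second term the SE was smaller, as given above, and CRABP1 did not pass the adjusted threshold there either. Leaving out 1 array moved the difference between -1.41 and 0.69, because the numbers then become unequal between the treatments.

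CRABP2, which passes retinoic acid to the nuclear receptors, had log2 signals of 8.55 and 8.42 in TBBD replicates 1 and 2, against 8.81 and 8.50 in DMSO replicates 1 and 2. TBBD minus DMSO was -0.08 in replicate 2 and -0.26 in replicate 1, and the combined difference of -0.17 ± 0.15 (SE) did not pass. Of its 10 probesets 9 were lower with TBBD on average. Unlike CRABP1, it lay lower on the replicate 2 arrays, at -0.23 ± 0.12 (SE), which did not pass limma's test either (adjusted p = 0.343).

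The receptors moved little. RARA had log2 signals of 6.19 and 6.46 in TBBD replicates 1 and 2, against 6.53 and 6.40 in DMSO replicates 1 and 2, which gave a difference of -0.14 ± 0.14 (SE). Its sign turned between the numbers, with 0.06 in replicate 2 and -0.34 in replicate 1, and this gap of 0.40 was the widest between the numbers among the 10 genes, though with single arrays it has no test. A single RARA probeset, picked after its values were seen, read 6.03 and 5.77 in TBBD replicates 1 and 2, against 6.86 and 6.41 in DMSO replicates 1 and 2. It was the only one of the 115 member probesets with an unadjusted p under 0.05 for TBBD minus DMSO in limma, against 2.69% of all probesets, and it did not pass after adjustment.

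RARB had log2 signals of 6.54 and 6.65 in TBBD replicates 1 and 2, against 6.34 and 6.57 in DMSO replicates 1 and 2. Of its windows, 1 held the match shown above. TBBD sat higher by 0.07 in replicate 2 and by 0.20 in replicate 1, and the difference of 0.14 ± 0.14 (SE) did not pass. By replicate number RARB differed by 0.17 ± 0.11 (SE), which did not pass limma's test (adjusted p = 0.439). CYP26A1, the other gene with a match in a window, differed by -0.61. A link between match and signal was not tested.

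RARG had log2 signals of 6.45 and 6.56 in TBBD replicates 1 and 2, against 6.63 and 6.59 in DMSO replicates 1 and 2. Both TBBD arrays lay below both DMSO arrays, at -0.11 ± 0.12 (SE), and 10 of its 13 probesets were lower, but the difference was no larger than its error. Between the replicate numbers RARG differed by 0.03 and RARA by 0.07, both with overlap.

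Across the set, 6 of the 10 genes had the same sign of TBBD minus DMSO in both replicate numbers, against 44.5% of all genes. By gene mean those were CYP26A1 and RARB, higher in both, and CYP26B1, CRABP1, CRABP2 and RARG, lower in both. Of the 115 probesets 56 had the same sign in both numbers and 58 opposite signs. The gene-level differences between the numbers ran from -0.28 for ALDH1A1 to 0.40 for RARA, each from single arrays and untested.

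**Figure D4:**
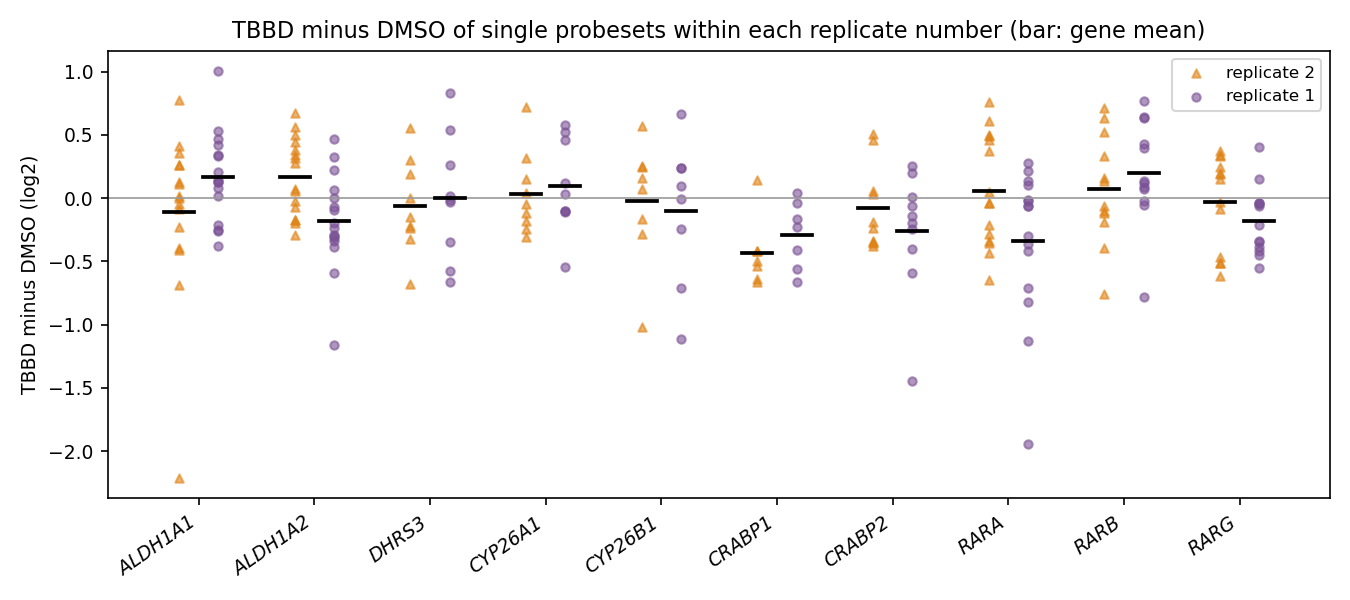
TBBD minus DMSO on the log2 scale for each of the 115 probesets, by gene, within replicate 2 (orange triangles) and replicate 1 (purple circles). Black bars are gene means. The bars lie on the same side of 0 in both numbers for 6 genes, and the probesets of a gene spread to both sides of 0 in every column.

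Other genes of the pathway were listed by role. For TBBD minus DMSO, 0 genes of the 4 lists passed limma's adjusted threshold and 0 had an unadjusted p under 0.05. Of the 12 measured uptake, storage and carrier genes, 8 were higher with a median of 0.06. Of the 21 other oxidation enzymes 9 were higher, with a median of -0.01, and of the 20 partner receptors and coregulators 7 were higher, with a median of -0.03. Of the 36 known target genes, 26 were higher with TBBD and 10 lower, with a median of 0.06, against 9100 of 18640 for all genes. The median of the targets was 0.08 within replicate 2 and -0.0026 within replicate 1. The dim olfactory receptor genes were higher with TBBD in 220 of 348, with a median of 0.03. Markers also leaned one way in this contrast, with 0 called: visceral endoderm and liver markers were higher in 13 of 13 (median 0.21), mesenchyme markers higher in 11 of 12 (median 0.21), streak markers lower in 10 of 10 (median -0.51) and pluripotency markers lower in 11 of 11 (median -0.21). Their part in the target values was not tested. TBBD and DMSO arrays did not overlap for 0 uptake genes, 6 oxidation enzymes, 5 partner receptors and 7 known targets, against the 20.9% of all genes.

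Among the oxidation enzymes RDH10, which makes the retinal that feeds synthesis, had log2 signals of 6.93 and 7.12 in TBBD replicates 1 and 2, against 7.34 and 7.24 in DMSO replicates 1 and 2. Both TBBD arrays were lower, at -0.26 ± 0.13 (SE), which did not pass. The retinol dehydrogenase gene RDH5 stood at -0.14 ± 0.11 (SE), DHRS9 at 0.15 ± 0.12 (SE) and the alcohol dehydrogenase gene ADH1A at 0.25 ± 0.12 (SE), none passing. ADH1A has near-identical neighbours in the genome, so its value is uncertain.

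By replicate number, several vitamin A carriers differed. RBP4, the blood carrier of retinol, read 6.95 with TBBD and 6.94 with DMSO on the replicate 2 arrays, against 5.45 with TBBD and 5.34 with DMSO on the replicate 1 arrays. Its partner TTR read 7.31 and 7.06, against 5.82 and 5.44, in the same order. Both rose, by 1.55 ± 0.10 for RBP4 and 1.55 ± 0.15 for TTR (SE; limma adjusted p = 0.000761 and 0.00315). STRA6, the cell-surface receptor that takes retinol from RBP4, was higher by 0.99 ± 0.10 (SE; limma adjusted p = 0.00372). FABP5, a fatty acid carrier that also binds retinoic acid, fell by 1.48 ± 0.12 (SE; limma adjusted p = 0.00148), at 7.91 with TBBD and 8.19 with DMSO on the replicate 2 arrays, against 9.50 with TBBD and 9.55 with DMSO on the replicate 1 arrays. FABP5 was measured on 1 probeset. In this list 3 of 12 genes passed higher and 1 lower, against 5.37% of all genes in either direction.

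The orphan receptors NR2F1 and NR2F2, which compete with retinoid receptors for DNA sites, rose in replicate 2 by 1.41 ± 0.10 and 1.11 ± 0.10 (SE; limma adjusted p = 0.00098 and 0.00261). They were the 2 of 20 partner receptors and coregulators that passed, against 5.37% of all genes. Of the 21 other oxidation enzymes 0 passed in limma and 2 had an unadjusted p under 0.05, a share below the 21% of all genes. ALDH1A3, the remaining synthesis enzyme of the ALDH1A group, read 6.06 with TBBD and 6.31 with DMSO on the replicate 2 arrays, against 6.54 with TBBD and 6.58 with DMSO on the replicate 1 arrays, a difference of -0.38 ± 0.12 (SE). DHRS4 stood at 0.37 ± 0.13, RDH14 at 0.12 ± 0.11 and CYP1B1 at -0.22 ± 0.11 (SE).

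Of the 36 known targets 6 passed higher and 1 lower in replicate 2, against 3.35% higher and 2.02% lower of all genes. The higher ones named by rule, besides STRA6, were the homeobox genes MEIS1, at 1.06 ± 0.15 (SE), and HOXA2, at 0.62 ± 0.11, TSHZ1, at 1.05 ± 0.10, and the cardiac and limb factor TBX5, at 0.53 ± 0.10, and the sixth was TSHZ3. CDX2, a caudal homeobox factor, was lower at -0.99 ± 0.17. The called targets thus did not share 1 direction, and the median of the 36 was 0.05. TBX5 lost the call with the treatment as a second term (limma adjusted p = 0.0596). HOXA2 and TBX5 lost it with any 1 array left out, at differences of 0.53 to 0.71 for HOXA2 and 0.50 to 0.57 for TBX5. Both also lost it with the median over probesets, as CDX2 did (limma adjusted p = 0.16). HOXA2 has 2 probesets, so its median equals its mean and its own difference was the same there.

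**Figure D5:**
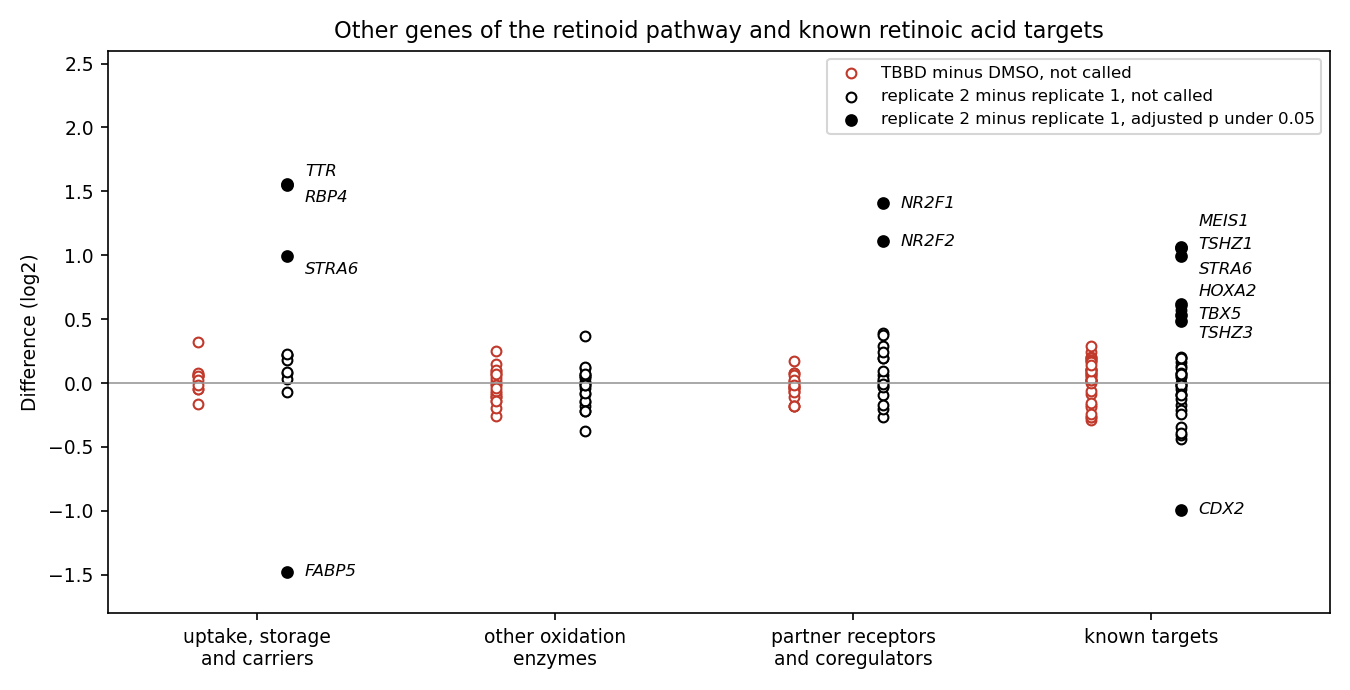
Differences on the log2 scale of the other retinoid pathway genes and known targets, by list, as TBBD minus DMSO (red) and replicate 2 minus replicate 1 (black, filled where the adjusted p was under 0.05). No red point passed, and the filled black points run from -1.48 for FABP5 to 1.55 for RBP4 and TTR.

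Cell type markers moved with the replicate number as well, read here against 3.35% of all genes called higher and 2.02% called lower. Of the mesenchyme markers 10 of 12 passed higher in replicate 2, and their mean log2 signal was 9.53 with TBBD and 9.33 with DMSO on the replicate 2 arrays, against 8.16 with TBBD and 8.01 with DMSO on the replicate 1 arrays. Visceral endoderm and liver markers, to which TTR belongs, passed higher in 9 of 13, with means of 6.94 and 6.70 against 5.64 and 5.50 in the same order. Endothelial markers passed higher in 6 of 8, with means of 7.11 and 6.86 against 6.07 and 6.09. Of 11 pluripotency markers 6 passed lower and 1, SOX2, higher, and their means were 7.11 and 7.37 against 7.47 and 7.68. Neural crest markers passed higher in 2 of 8, and 7 of the 8 lay higher, with a median of 0.44. Trophoblast markers lay higher in 3 of 8 and lower in 5, with a median of -0.27, and the 2 that passed, CGA and ERVW-1, were higher. Neural progenitor and streak markers passed in 0 of 9 and 0 of 10 in limma, with 2 and 4 at an unadjusted p under 0.05, against 21% of all genes. The part of cell composition in the CRABP1, CYP26A1 and DHRS3 differences was not tested.

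CRABP1 was the one member whose signals spanned at least 1 on the log2 scale, and the genes with the most similar course over the 4 arrays were looked up among 16809 other genes. COL3A1 came first, at a Euclidean distance of 0.45 between centred profiles, followed by NPNT at 0.46 and SOX6 at 0.50. COL3A1 read 10.65 with TBBD and 10.50 with DMSO on the replicate 2 arrays, against 8.34 with TBBD and 8.48 with DMSO on the replicate 1 arrays. With 4 arrays this is a description, and any gene split in the same way by the replicate number comes close.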

How the data were processed

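Per the labels' protocols, total RNA taken up in Trizol was turned into biotinylated cRNA and hybridised to Affymetrix Human Gene 1.0 ST arrays. For every array the authors deposited a log2 value per probeset at exon level, made with RMA per the submitters' processing notes, and the range of the values gave the log2 scale. No source used here gives the RMA version, its settings or a genome build. The arrays give no detection call here, and their number limits the precision.

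Of 247312 probesets, 277 with a placeholder cell were left out, and none of them belonged to the 10 genes. Probesets with 1 gene symbol were averaged per gene after older symbols were updated through a RefSeq table, which gave 18640 genes. Both contrasts were fitted with limma 3.58.1 in R 4.3.3, with a single term, either the group or the replicate number. Tests were two-sided, and p-values were adjusted by Benjamini-Hochberg across the 18640 genes. The fit was also run on simulated arrays with independent noise. Same-number arrays here deviated together, so that run does not show how the fit behaves under such sharing. Summary tables were made in Python 3.11.15 with pandas 2.3.3.

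The members and lists were chosen with earlier results of these data known. The rule for other genes took those past the adjusted threshold, up to 5 per list and direction. Where a list had none, it took up to 2 per direction and contrast with non-overlapping groups and at least 3 probesets. TSHZ3, the marker genes named and 1 RARA probeset fell outside it. Some listed genes are not reported here, and counts are over the measured members of each list. Alternatives were other normalizations, gene summaries, filters, variance models, terms, call rules and arrays left out.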

Additional observations from a re-analysis of the deposited data

How the results depend on the processing

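TBBD minus DMSO gave 0 called genes over the whole array under every setting that kept the adjusted threshold, and 20 where the rule was an unadjusted p below 0.05 plus a 1.5-fold change. Without 1 array, its value ran from -0.26 to 0.39 for CYP26A1, from -0.21 to 0.083 for CYP26B1, from -0.12 to 0.18 for ALDH1A1, from -0.23 to 0.22 for ALDH1A2, from -1.41 to 0.69 for CRABP1 and from -0.27 to 0.21 for DHRS3. It kept its sign but moved from -0.28 to -0.0068 for RARA, from 0.018 to 0.26 for RARB, from -0.33 to -0.013 for CRABP2 and from -0.16 to -0.051 for RARG. Leaving out an array makes the numbers unequal between treatments by construction and assumes that the lone array varies like the others. With the median over probesets ALDH1A1 stood at -0.030 and RDH5 at 0.035. Same-number arrays deviated together across genes (r = 0.57), but the labels do not pair them. Adding the replicate block, limma called 0 genes, and CRABP1 stood at -0.36 ± 0.12 (SE).

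Replicate 2 minus replicate 1 called 1001 genes, 653 with the treatment as a second term, and between 368 and 685 without 1 array. The 3 called retinoic acid genes became 1 among the genes brighter than the median, which leaves out CYP26A1 and DHRS3, and 1 without any 1 array. In the fit on single probesets 0 of the 10 genes had a called probeset, and 20 of the 115 probesets of all 10 had an unadjusted p under 0.05, against 12.4% of all probesets. RARA turned to -0.21 with the median over probesets and ran from -0.10 to 0.24 without 1 array, and RARG from -0.057 to 0.12. The causes were not tested. No depth is recorded for arrays, and dim signals such as those of CYP26B1 cannot be told from background here.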
